A study of Homo sapiens with 96 samples.

Results

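Mediator is the coactivator complex that joins DNA-bound transcription factors to RNA polymerase II. The splicing of its subunit genes was followed here in A549 cells, a human lung carcinoma epithelial line, during inhibition of protein arginine methyltransferases (PRMTs). Members were every splicing event whose gene symbol was MED with a number, MED12L, MED13L, CDK8, CDK19, or CCNC. They were 437 of 239131 events and lay in 31 of 14359 genes. The events comprised 11 retained introns (RI), 321 exon skipping events (SE), 79 choices between exons that exclude each other (MXE), 19 choices of 3′ splice site (A3SS), and 7 of 5′ splice site (A5SS). MED7 and MED26 had no event listed. MED12L had events listed but none that met the read minimum.

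Poly(A)-RNA seq covered 30 libraries in 10 groups of 3. Cells received 0.01% DMSO for 4 or 7 days, a single inhibitor (GSK591 or MS023, at 1 µM) for 2, 4, or 7 days, or both of them at 1 µM each (co-treatment) for 2 or 4 days. GSK591 inhibits PRMT5, the main enzyme of symmetric arginine dimethylation, and MS023 inhibits the Type I PRMTs, which form asymmetric dimethylarginine. All cells were of 1 line, and nothing in the labels states that libraries of a group came from separate cultures. The p-values therefore rest on the spread between these libraries, moderated toward that of other events of the same type. The 2-day inhibitor libraries were compared with DMSO at 4 days. That the control of the 7-day tables was DMSO at 7 days was inferred from the labels.

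Mediator is built from a head, a middle, and a tail on the MED14 scaffold, and the tail receives most transcription factors. A detachable kinase module of CDK8 or CDK19, cyclin C (CCNC), MED12, and MED13 or their paralogs limits its contact with the polymerase. Introns are removed from the transcripts of these genes by the spliceosome, and where an alternative intron lies inside a coding exon, its retention keeps that exon whole.

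Each event has an inclusion form and a skipping form, and Ψ is the share of the inclusion form after correction for effective length. ΔΨ is Ψ with inhibitor minus Ψ with DMSO. An event was tested where every library held at least 10 reads and was called at an adjusted p under 0.05 (quasi-binomial test, all events of a type together). The libraries, named a to c by their order in the tables, held 3148825 to 5224249 reads on RI events and 2680 to 5705 reads on the Mediator RI. Reads on events of the epithelial keratin genes KRT8 (266370 to 603959 per library) and KRT18 (17743 to 297208) were many, CDH1 had 266 to 1310, and EPCAM had 5 to 297. The T cell gene CD3E had 0 to 17 and the endothelial gene VWF 0 to 3, and KRT19, PTPRC, and PECAM1 had no event listed. Such reads are not expression levels.

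Of the alternative segments described below, 5 short ones are printed whole. Sequences are from GRCh37 (hg19), 5′ to 3′, with the alternative segment in capitals and 20 flanking bases on each side in lower case. The first pair are introns that lie within 1 coding exon of the reference transcript, that of MED12 in exon 41 of 45 at chrX:70357631-70357705 (+ strand, 75 nt) and that of MED15 in exon 5 of 18 at chr22:20909283-20909363 (+ strand, 81 nt). The MED12 segment begins with GT and the MED15 segment with GC, both end with AG, and both lengths are multiples of 3.
MED12 RI: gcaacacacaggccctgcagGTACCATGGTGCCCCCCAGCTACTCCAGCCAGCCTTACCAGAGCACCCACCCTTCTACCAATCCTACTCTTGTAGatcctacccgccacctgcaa
MED15 RI A: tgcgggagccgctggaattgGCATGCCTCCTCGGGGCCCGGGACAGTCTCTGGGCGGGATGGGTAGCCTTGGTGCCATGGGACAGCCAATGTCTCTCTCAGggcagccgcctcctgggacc

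The other 3 are the MED15 coding exon 9 that was skipped most with co-treatment (chr22:20929400-20929519, + strand, 120 nt), the 9 nt between a pair of competing 5′ splice sites at MED12 intron 39 (chrX:70357234-70357242, + strand), and an 18-nt coding microexon within MED23 intron 10 (chr6:131936464-131936481, − strand). The upstream 5′ splice site of MED12 is GC and the downstream site GT.
MED15 SE: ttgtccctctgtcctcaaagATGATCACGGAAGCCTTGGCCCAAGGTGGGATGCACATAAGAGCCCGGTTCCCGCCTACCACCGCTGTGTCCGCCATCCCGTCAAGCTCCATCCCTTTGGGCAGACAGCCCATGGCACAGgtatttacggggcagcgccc
MED12 A5SS: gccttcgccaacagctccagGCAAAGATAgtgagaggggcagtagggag
MED23 SE B: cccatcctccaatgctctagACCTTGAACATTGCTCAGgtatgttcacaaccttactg

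Retention rose in single Mediator introns, those of MED12, MED15, MED23, and MED8, in at least 1 comparison with GSK591 or co-treatment, and no Mediator RI was called with MS023. With GSK591, 1 of 11 RI was called at 2 days, 6 at 4 days, and 2 at 7 days, where 25.0%, 36.8%, and 25.3% of all RI tested were called. With co-treatment, 4 were called at 2 days (33.5% of all RI) and 3 at 4 days (38.5%). The quasi-binomial test called 0 of 11 with MS023 at 2, 4, and 7 days, beside 5.07%, 6.24%, and 10.2% of all RI. At an unadjusted p under 0.05 there were 2, 1, and 0, and limma on log2 odds also called 0 on each day. Over all 8 comparisons with DMSO, 6 of 11 RI were called, beside 50.3% of all RI. Of the 11, 5 were higher in each of their calls, beside 32.1% of all RI tested. The sixth RI called, in MED22, was lower. With so few introns the Mediator shares stood on both sides of the shares over all RI.

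The median ΔΨ of the 11 Mediator RI was 0.00472, 0.008, and 0.00601 with GSK591 at 2, 4, and 7 days, beside 0.015, 0.0196, and 0.00762 over all RI tested. Co-treatment gave 0.00472 at 2 days and 0.00812 at 4 days, beside 0.0161 and 0.0161 over all RI. With MS023 it was -0.00166, 0.00324, and -0.00111, beside -0.00316, -0.00404, and -0.00596. The Mediator introns moved in both directions, so these medians do not give the size of single changes.

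Exon and splice-site events of Mediator genes were called at shares below those of all events in each comparison with DMSO. With GSK591 at 2 days the shares were close, at 3.67% and 3.95%. These differences were not tested, and the comparisons at 2 and 4 days share the same DMSO libraries. Of SE, MXE, A3SS, and A5SS events together, 8 of 218 were called with GSK591 at 2 days, 13 of 227 at 4 days, and 4 of 198 at 7 days, beside 3.95%, 7.1%, and 5.03% of all such events. Co-treatment gave 15 of 243 at 2 days and 18 of 227 at 4 days, beside 8.68% and 10.1%. MS023 gave 1 of 230, 0 of 223, and 1 of 210, beside 1.45%, 1.83%, and 2.34%. The 0 at 4 days stood beside 9 at an unadjusted p under 0.05 and 0 by limma. Of 295 SE tested, 19 were called in any comparison, beside 10.1% of all SE. Of the 295, 16 were lower in each of their calls, beside 7.08% of all SE tested. A further 2 were higher, and 1 changed direction.

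Over the 8 comparisons with DMSO, 406 of the 437 events were tested, and 31 of these (7.64%) were called at least once, beside 11.2% of all events tested. They held 28 distinct segments in 13 genes. Calls fell in all 5 tail genes (16 of 122 tested events), 3 of 7 kinase module genes (6 of 138), 2 of 7 middle genes (6 of 55), the MED14 scaffold (1 of 16), and 2 of 11 head genes (2 of 75). The shares of events called by module, from 2.67% in the head to 13.1% in the tail, are a description, and their difference was not tested.

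MED12, which activates the CDK8 kinase through cyclin C, held the RI called most often. In DMSO at 4 days, Ψ of its 75-nt intron was 0.875, 0.844, and 0.936 in libraries a to c. It was 1, 0.971, and 1 with GSK591 at 2 days and 1, 1, and 0.989 at 4 days. At 7 days, Ψ was 0.893, 0.952, and 0.884 with DMSO and 1 in each GSK591 library. GSK591 libraries thus lay above their DMSO libraries without overlap on each day. ΔΨ was 0.105 (adjusted p = 0.0397), 0.111 (0.00195), and 0.0904 (0.0302) at 2, 4, and 7 days.

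Co-treatment also raised retention of the MED12 intron. Ψ was 0.974, 1, and 0.972 at 2 days (ΔΨ = 0.0974, adjusted p = 0.0191) and 0.986, 1, and 1 at 4 days (ΔΨ = 0.11, adjusted p = 0.00245). MS023 libraries ranged from 0.809 to 0.905 and gave no call (ΔΨ = -0.0276, 0.0146, and -0.0734, adjusted p = 0.855, 0.802, and 0.351). At 7 days the MS023 libraries, at 0.832, 0.868, and 0.809, lay below DMSO without overlap. In reads, the spliced form fell from 46 of 542 (8.49%) in DMSO at 4 days to 1 of 354 (0.282%) with GSK591. At 7 days it fell from 16 of 261 to 0 of 158, which allows up to 1.9% (3 reads, counting error only). Set directly against MS023, GSK591 was higher by 0.133, 0.0968, and 0.164 at 2, 4, and 7 days (adjusted p = 0.0147, 0.00312, and 0.00071).

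The 4-day calls for MED12 held without any 1 library. The 2-day GSK591 call was lost without DMSO a or b or any GSK591 library (ΔΨ from 0.0848 to 0.131, adjusted p up to 0.169), that of co-treatment without DMSO b or co-treatment a or b (up to 0.11), and the 7-day call without DMSO a or c or any GSK591 library (up to 0.102). The direction was kept in each case.

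**Figure D1:**
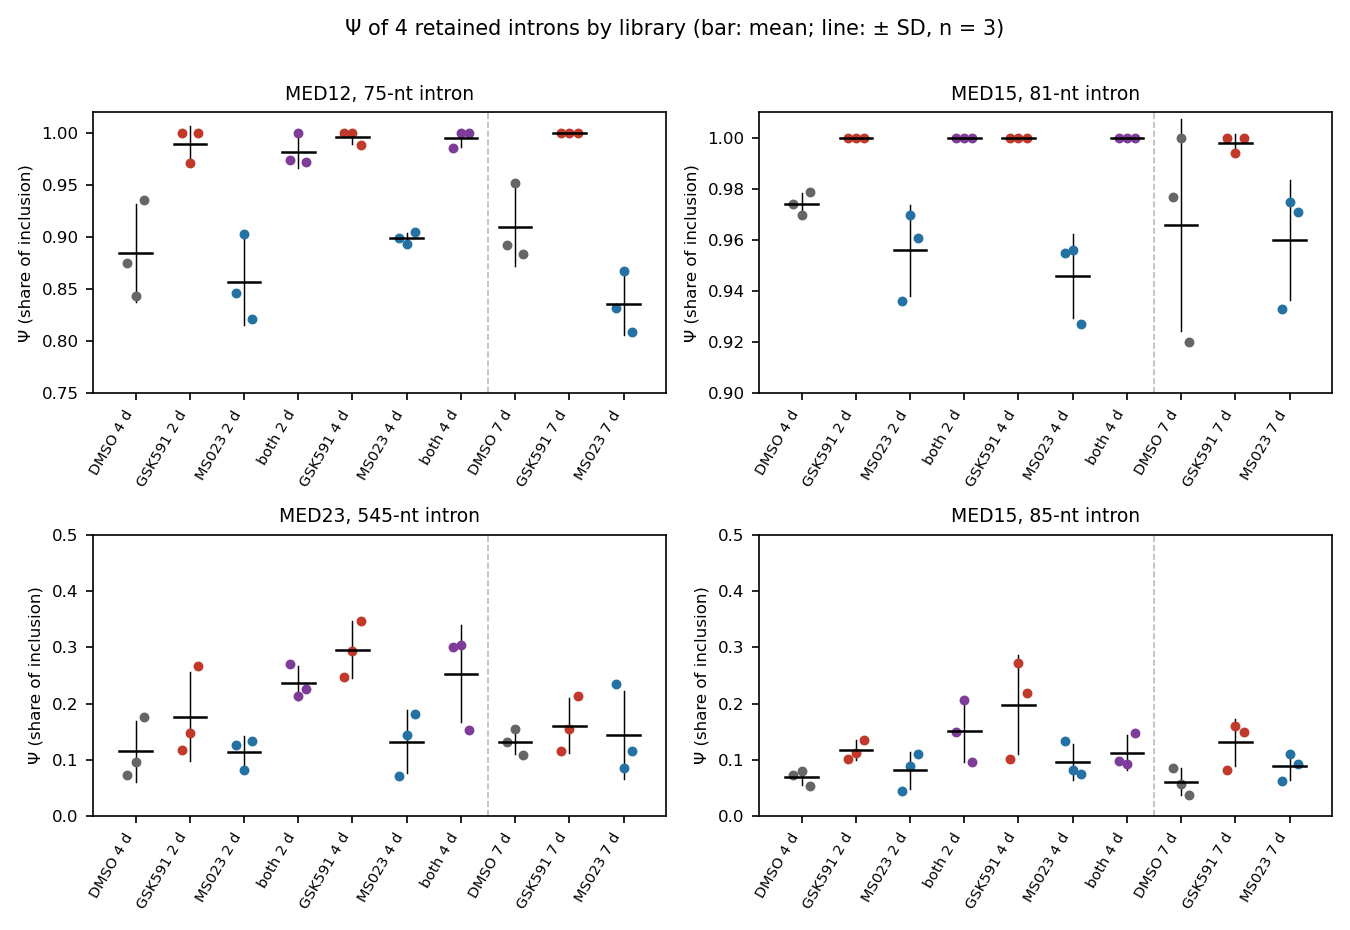
Ψ per library (points) with the mean (bar) and SD (line) of 3 libraries, for 4 Mediator retained introns across the 10 groups. Vertical axes differ, and those of MED12 and of the MED15 81-nt intron start at 0.75 and 0.9. For MED12 the GSK591 and both-inhibitor libraries lie at 0.971 or above, over all DMSO and MS023 libraries.

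Upstream of this intron, MED12 also changed its choice of 5′ splice site at intron 39. Use of the downstream GT site, which adds the 9 nt printed above, was 0.541, 0.449, and 0.574 in DMSO at 4 days. It was 0.5, 0.224, and 0.18 with GSK591 at 2 days (ΔΨ = -0.22, adjusted p = 0.0409), 0.21, 0.386, and 0.0676 at 4 days (-0.3, 0.000614), and 0.261, 0.286, and 0.239 with co-treatment at 4 days (-0.259, 0.00699). The 9 nt were thus left out more often in these 3 comparisons, of which GSK591 at 2 days overlapped with DMSO. Co-treatment at 2 days gave -0.161 with overlap and was not called (adjusted p = 0.0881). At 7 days Ψ was 0.212 ± 0.118 (SD, n = 3) with GSK591 and 0.387 ± 0.0787 with DMSO, which overlapped and was not called, and with MS023 it was 0.639 ± 0.0683.

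The MED12 5′ splice site differed between GSK591 and MS023 by -0.231, -0.375, and -0.427 on the 3 days (adjusted p = 0.0157, 3.59e-07, and 3.5e-05). MS023 was not called against DMSO on any day. At 4 days MS023 libraries, at 0.6, 0.591, and 0.599, lay above each DMSO library. At 7 days they were at 0.699, 0.654, and 0.565, above DMSO at 0.466, 0.309, and 0.386. The differences at 4 and 7 days thus include higher Ψ with MS023. Each library held 26 to 123 reads. The calls against DMSO were lost without DMSO a or c or GSK591 b or c at 2 days (ΔΨ from -0.319 to -0.159), without GSK591 c at 4 days (-0.223, adjusted p = 0.0801), and without co-treatment library c (adjusted p = 0.0524). A MED12 exon of 81 nt was also lower with co-treatment at 4 days (1 to 0.924).

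CCNC encodes the cyclin that partners CDK8 and CDK19. A pair of overlapping exons of 95 and 68 nt in its last intron (chr6:99992055-99992149 and chr6:99992082-99992149, − strand) were singled out after their values were seen, since their ΔΨ fell short of the size set for naming. The 95-nt exon had Ψ of 0.101, 0.107, and 0.0857 in DMSO at 4 days and 0.0186, 0.0272, and 0.0285 with co-treatment (ΔΨ = -0.0732, adjusted p = 1.25e-07). GSK591 gave -0.045, -0.0515, and -0.0429 at 2, 4, and 7 days (adjusted p = 0.0211, 0.0036, and 0.0105), and co-treatment at 2 days gave -0.0599 (0.000277). Inclusion was therefore lower in each of these 5 comparisons, with no overlap of libraries. By limma on log2 odds, none of these 5 calls was kept (adjusted p from 0.0752 to 0.524).

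MS023 left the CCNC exon at 0.0933 ± 0.0357 (SD, n = 3) at 4 days and was not called on any day. The 68-nt exon, which shares the skipping reads, was called with GSK591 at 4 days (-0.0363, adjusted p = 0.029) and with co-treatment at 2 and 4 days (-0.0431 and -0.0552). The GSK591 calls of the 95-nt exon were lost at 2 days without DMSO a or b or GSK591 a or b and at 7 days without GSK591 c (ΔΨ = -0.0354, adjusted p = 0.201), and that of the 68-nt exon without DMSO a or b or GSK591 c. Of the other kinase module genes, MED13 had 1 call, a 684-nt exon with co-treatment at 2 days (0.997 to 0.938), and CDK8, CDK19, and MED13L had none.

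MED15, a tail subunit that binds transcription factor activation domains, held both an intron within an exon and a conventional RI. The 81-nt intron had Ψ of 0.974, 0.97, and 0.979 in DMSO at 4 days and 1 in each library of GSK591 at 2 and 4 days and of co-treatment at 2 and 4 days. The spliced form made up 13 of 778 reads in DMSO and 0 of 476, 592, 599, and 693 reads in those 4 groups, which allow up to 0.63%, 0.507%, 0.501%, and 0.433%. ΔΨ was 0.0258 in each, called for GSK591 at 4 days and co-treatment at 2 and 4 days (adjusted p = 0.0459, 0.0434, and 0.0298) and not for GSK591 at 2 days (0.116).

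At 7 days the MED15 81-nt intron stood at 0.977, 1, and 0.92 with DMSO and 1, 0.994, and 1 with GSK591, which overlap (ΔΨ = 0.0323, adjusted p = 0.0299). GSK591 was higher than MS023 on all 3 days, by 0.0445, 0.0539, and 0.0383 (adjusted p = 0.0218, 0.0031, and 0.00312). MS023 against DMSO gave -0.0187, -0.0282, and -0.006 at 2, 4, and 7 days, not called (adjusted p = 0.67, 0.459, and 0.929). At 2 and 4 days MS023 libraries lay below DMSO without overlap, so the differences from GSK591 include lower Ψ with MS023. The calls against DMSO rested on few spliced reads, 13 in DMSO at 4 days and 15 at 7 days. They were lost at 4 days with GSK591 and at 2 days with co-treatment without any 1 of the 6 libraries, at 4 days with co-treatment without any 1 but DMSO c, and at 7 days without DMSO c or GSK591 a or c, where ΔΨ ranged from 0.00933 to 0.0495 and adjusted p reached 0.39.

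MED15 intron 15 (chr22:20939303-20939387, + strand, 85 nt), a conventional intron, had Ψ of 0.0734, 0.0805, and 0.0529 in DMSO at 4 days. It was 0.102, 0.273, and 0.219 with GSK591 at 4 days (ΔΨ = 0.129, adjusted p = 0.000203) and 0.149, 0.207, and 0.0959 with co-treatment at 2 days (0.0816, 0.00776). Each of those libraries lay above the DMSO libraries. Other changes were not called: 0.0477 with GSK591 at 2 days, 0.07 at 7 days (adjusted p = 0.0556), and 0.0441 with co-treatment at 4 days. Without co-treatment library b the 2-day call was lost (ΔΨ = 0.0535, adjusted p = 0.139).

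Among called Mediator SE, MED15 exon 9 had the largest ΔΨ with co-treatment. Its Ψ was 0.558, 0.622, and 0.532 in DMSO at 4 days, 0.353, 0.379, and 0.329 with GSK591 at 4 days, and 0.165, 0.142, and 0.185 with co-treatment at 4 days. These 3 groups did not overlap. ΔΨ was -0.198 and -0.217 with GSK591 at 2 and 4 days (adjusted p = 0.00226 and 0.000237) and -0.384 and -0.407 with co-treatment (2.74e-12 and 5.94e-17), while MS023 gave -0.0197 and -0.0355 (0.888 and 0.73). At 7 days MS023 libraries lay above DMSO without overlap (0.127), which was not called (adjusted p = 0.392).

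Against GSK591 itself, co-treatment lowered MED15 exon 9 by a further -0.186 at 2 days (adjusted p = 0.0373) and -0.19 at 4 days (0.000427). Whether co-treatment departed from added single-inhibitor effects was tested as an interaction of log odds, which was not called at 2 or 4 days (adjusted p = 0.492 and 0.132). The controls differed too: DMSO libraries at 7 days were at 0.344, 0.351, and 0.417, lower than at 4 days by -0.2 (adjusted p = 0.0384), and GSK591 at 7 days (0.291 ± 0.0583, SD, n = 3) was not called against them. For the 2-day comparisons, day and treatment cannot be told apart. The 2-day GSK591 call was lost without GSK591 b (ΔΨ = -0.163, adjusted p = 0.195).

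The same 120-nt exon entered an MXE event with the exon at chr22:20936898-20937034, which follows it. Its share was 0.249 ± 0.0342 (SD, n = 3) in DMSO at 4 days, 0.078 ± 0.0254 with co-treatment at 2 days (ΔΨ = -0.171, adjusted p = 0.000329), and 0.0503 ± 0.0279 at 4 days (-0.198, 1.87e-05). Both MED15 events share reads across this exon and are not independent. The MXE share was also lower in DMSO at 7 than at 4 days (-0.125, adjusted p = 0.00807).

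MED23, a tail subunit that links growth factor signalling to transcription, changed at its intron 24 and at exon 25, which follows that intron. Its 545-nt intron 24 (chr6:131913601-131914145, − strand) had Ψ of 0.0737, 0.0957, and 0.177 in DMSO at 4 days. It was 0.247, 0.294, and 0.347 with GSK591 at 4 days (ΔΨ = 0.181, adjusted p = 0.000696), 0.271, 0.213, and 0.226 with co-treatment at 2 days (0.121, 0.0206), and 0.3, 0.304, and 0.153 at 4 days (0.137, 0.0134). The first pair of groups lay above DMSO, and co-treatment at 4 days overlapped with it in library c.

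By 7 days the MED23 intron was at 0.161 ± 0.0488 (SD, n = 3) with GSK591 and 0.132 ± 0.0222 with DMSO, which was not called. The change in the GSK591 effect from 4 to 7 days was -0.151 and was not called either (adjusted p = 0.211). MS023 gave 0.114 ± 0.0281, 0.132 ± 0.0562, and 0.145 ± 0.0783, and differed from GSK591 by 0.164 at 4 days (adjusted p = 0.000271). The co-treatment calls were lost at 2 days without DMSO a or b or co-treatment a (ΔΨ from 0.1, adjusted p up to 0.097) and at 4 days without DMSO a or co-treatment a or b (from 0.111, up to 0.0937).

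The 73-nt coding exon 25 of MED23 (chr6:131913528-131913600), which follows this intron, was skipped more often. Its Ψ was 0.959, 1, and 0.96 in DMSO at 4 days, 0.635, 0.717, and 0.811 with co-treatment at 2 days, and 0.744, 0.644, and 0.636 at 4 days. ΔΨ was -0.252 and -0.298 (adjusted p = 0.000247 and 2.28e-05). With GSK591 at 4 days it was -0.15 (0.0397), a call lost without any library but GSK591 b (adjusted p up to 0.255). Intron 24 was thus retained more and exon 25 included less in the same groups.

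An A5SS event of MED23 spans intron 24 and exon 25 together (618 nt) and uses the same skipping reads as exon 25. It fell from 0.917 ± 0.0753 (SD, n = 3) in DMSO to 0.504 ± 0.0713 with co-treatment at 2 days (ΔΨ = -0.412, adjusted p = 0.000905) and to 0.49 ± 0.136 at 4 days (-0.426, 0.000544). Its inclusion count takes in reads of the intron and the exon, so the 3 events of this region are not independent.

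The MED23 microexon rose with GSK591 at 4 days. Inclusion was 0.157, 0.126, and 0.0449 in DMSO and 0.41, 0.308, and 0.395 with GSK591 (ΔΨ = 0.262, adjusted p = 0.0423). Inclusion reads numbered 5, 6, and 2 in DMSO and 7, 9, and 19 with GSK591. Differences of similar size were seen with GSK591 at 2 days (0.286), GSK591 at 7 days (0.285), and co-treatment at 2 and 4 days (0.245 and 0.275), but these were not called (adjusted p from 0.075 to 0.121). GSK591 was above MS023 by 0.302 at 2 days and 0.348 at 4 days (adjusted p = 0.0464 and 0.000139). The 4-day call against DMSO was lost without any 1 library (adjusted p up to 0.239).

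An A3SS event of MED23 that adds 18 nt at chr6:131931387-131931404, in no annotated exon, was called with GSK591 at 2 days. It had 0 of 99 reads in DMSO, which allows up to 3.03%, and 15 of 49 with GSK591 (ΔΨ = 0.271, adjusted p = 0.00614). With GSK591 at later days it had 3 of 56 reads at 4 days, where the read minimum was not met, and 4 of 54 at 7 days (ΔΨ = 0.0709, adjusted p = 0.602, not called). It shares its skipping reads with the microexon, and its longer form would end its intron in AT in place of AG. Without DMSO c or GSK591 b the call was lost (adjusted p up to 0.0792). It met the read minimum in 4 of the 8 comparisons.

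**Figure D2:**
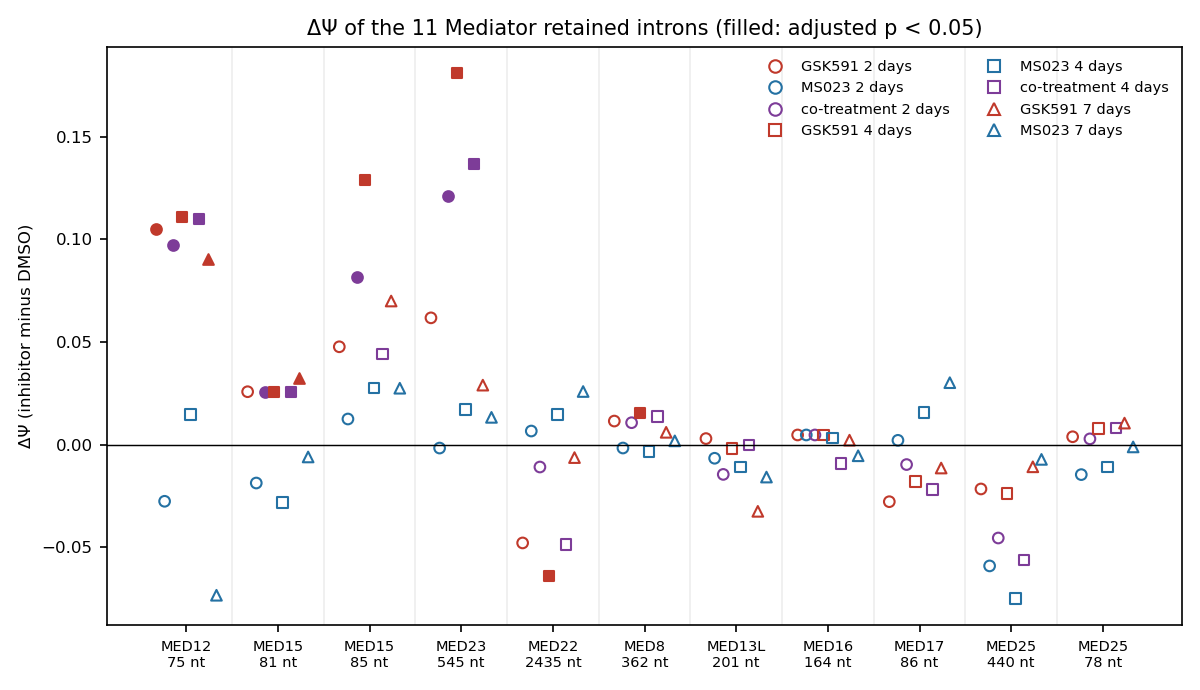
ΔΨ of each of the 11 Mediator retained introns in the 8 comparisons with DMSO. Colour gives the compound (red GSK591, blue MS023, purple co-treatment), shape the day (circle 2, square 4, triangle 7), and filled symbols were called. Filled symbols lie in MED12, both MED15 introns, MED23, MED22, and MED8, and that of MED22 is below 0.

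MED24, another tail subunit, showed the largest ΔΨ of any called Mediator event. It is an A3SS event in intron 6 (chr17:38189710-38190024, − strand) in which the next exon begins 315 nt early. In DMSO at 4 days the longer form was at 0.257, 0.275, and 0.273. It was at 0.424, 0.525, and 0.45 with GSK591 at 2 days and 0.783, 0.691, and 0.665 at 4 days, without overlap (ΔΨ = 0.199 and 0.445, adjusted p = 0.00595 and 3.75e-12). With GSK591 at 4 days, inclusion reads were 135, 146, and 136, against 71, 72, and 70 in DMSO. Skipping reads were 12, 21, and 22, against 66, 61, and 60. With co-treatment, Ψ was 0.519 ± 0.0932 (SD, n = 3) at 2 days and 0.622 ± 0.093 at 4 days, and ΔΨ was 0.251 and 0.354 (adjusted p = 0.000192 and 3.54e-07).

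At 7 days, MED24 stood at 0.679, 0.703, and 0.743 with GSK591 and 0.291, 0.443, and 0.548 with DMSO (ΔΨ = 0.281, adjusted p = 0.0143). With MS023, Ψ was 0.322 ± 0.0433 (SD, n = 3), 0.279 ± 0.0168, and 0.333 ± 0.072 at 2, 4, and 7 days and was not called, though the 2-day libraries lay above DMSO without overlap (ΔΨ = 0.0539, adjusted p = 0.79). GSK591 exceeded MS023 by 0.434 at 4 days and 0.376 at 7 days (adjusted p = 4.27e-12 and 0.0001), and the 0.145 at 2 days was not called (0.0686). The inclusion count holds any read within the 315 nt, from whichever exon upstream. The same segment spliced from exon 6 had lower Ψ (0.0797 in DMSO at 4 days, 0.178 with GSK591) and was called in the same direction with GSK591 at 2 and 4 days and with co-treatment. For the event of largest ΔΨ, the 2-day GSK591 call was lost without GSK591 b. Its 7-day call was lost without DMSO a or GSK591 b or c (ΔΨ from 0.213, adjusted p up to 0.25). By limma on log2 odds, none of its 5 calls against DMSO was kept (adjusted p from 0.0569 to 0.288).

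The 57-nt exon that this MED24 event takes as its upstream exon, at chr17:38191169-38191225, was itself included less. Ψ was 0.201, 0.176, and 0.254 in DMSO at 4 days, 0.0736, 0.142, and 0.0856 with GSK591 (ΔΨ = -0.11, adjusted p = 0.000756), and 0.133, 0.0911, and 0.0896 with co-treatment (-0.106, 0.000318). In DMSO at 7 days it was lower as well, at 0.116 ± 0.00353 (SD, n = 3; -0.0944 against 4 days, adjusted p = 0.0381). GSK591 at 7 days reached 0.0525 ± 0.00648, not called against DMSO (adjusted p = 0.0512). The junction from this exon to the next gives the skipping reads of the 315-nt event and is among the inclusion reads of the exon, so these MED24 events are not independent.

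MED25, the tail subunit contacted by the viral activator VP16, carried the only Mediator event called with MS023. Its 125-nt coding exon 3 (chr19:50322429-50322553, + strand) was at 0.977, 0.983, and 0.944 in DMSO at 4 days and 0.973, 1, and 0.979 at 7 days. MS023 brought it to 0.942, 0.883, and 0.925 at 2 days and 0.942, 0.937, and 0.919 at 7 days (ΔΨ = -0.0514 and -0.0514, adjusted p = 0.035 and 0.000509). MS023 at 4 days lay below DMSO without overlap too, but was not called (-0.0445, 0.0721).

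GSK591 lowered MED25 exon 3 at 4 and 7 days (-0.0512 and -0.0533, adjusted p = 0.0116 and 0.000218), with overlap of libraries at 4 days. Co-treatment took it to 0.858, 0.898, and 0.867 at 2 days and 0.877, 0.872, and 0.844 at 4 days (-0.0942 and -0.104, adjusted p = 7.4e-06 and 4.95e-07). Exon 3 was thus lower in all 6 comparisons that were called. By limma on log2 odds, none of these 6 calls was kept (adjusted p from 0.0704 to 0.611). GSK591 and MS023 did not differ by call on any day (0.0302, -0.00678, and -0.00185 at 2, 4, and 7 days), and co-treatment was below GSK591 at 2 days (-0.073, adjusted p = 0.0312). The 4-day GSK591 call was lost without DMSO a or b or GSK591 c and the 2-day MS023 call without DMSO a or b or MS023 b or c (ΔΨ from -0.0707 to -0.0278 and from -0.0641 to -0.0343).

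A further MED25 exon of 88 nt fell from 0.998 in DMSO at 4 days to 0.925 and 0.923 with GSK591 at 2 and 4 days and to 0.956 with co-treatment at 4 days, and a 72-nt exon from 0.97 to 0.922 with co-treatment at 2 days. MED16, the remaining tail gene, had 1 call, a 193-nt exon at 0.978 in DMSO and 0.883 with co-treatment at 2 days.

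**Figure D3:**
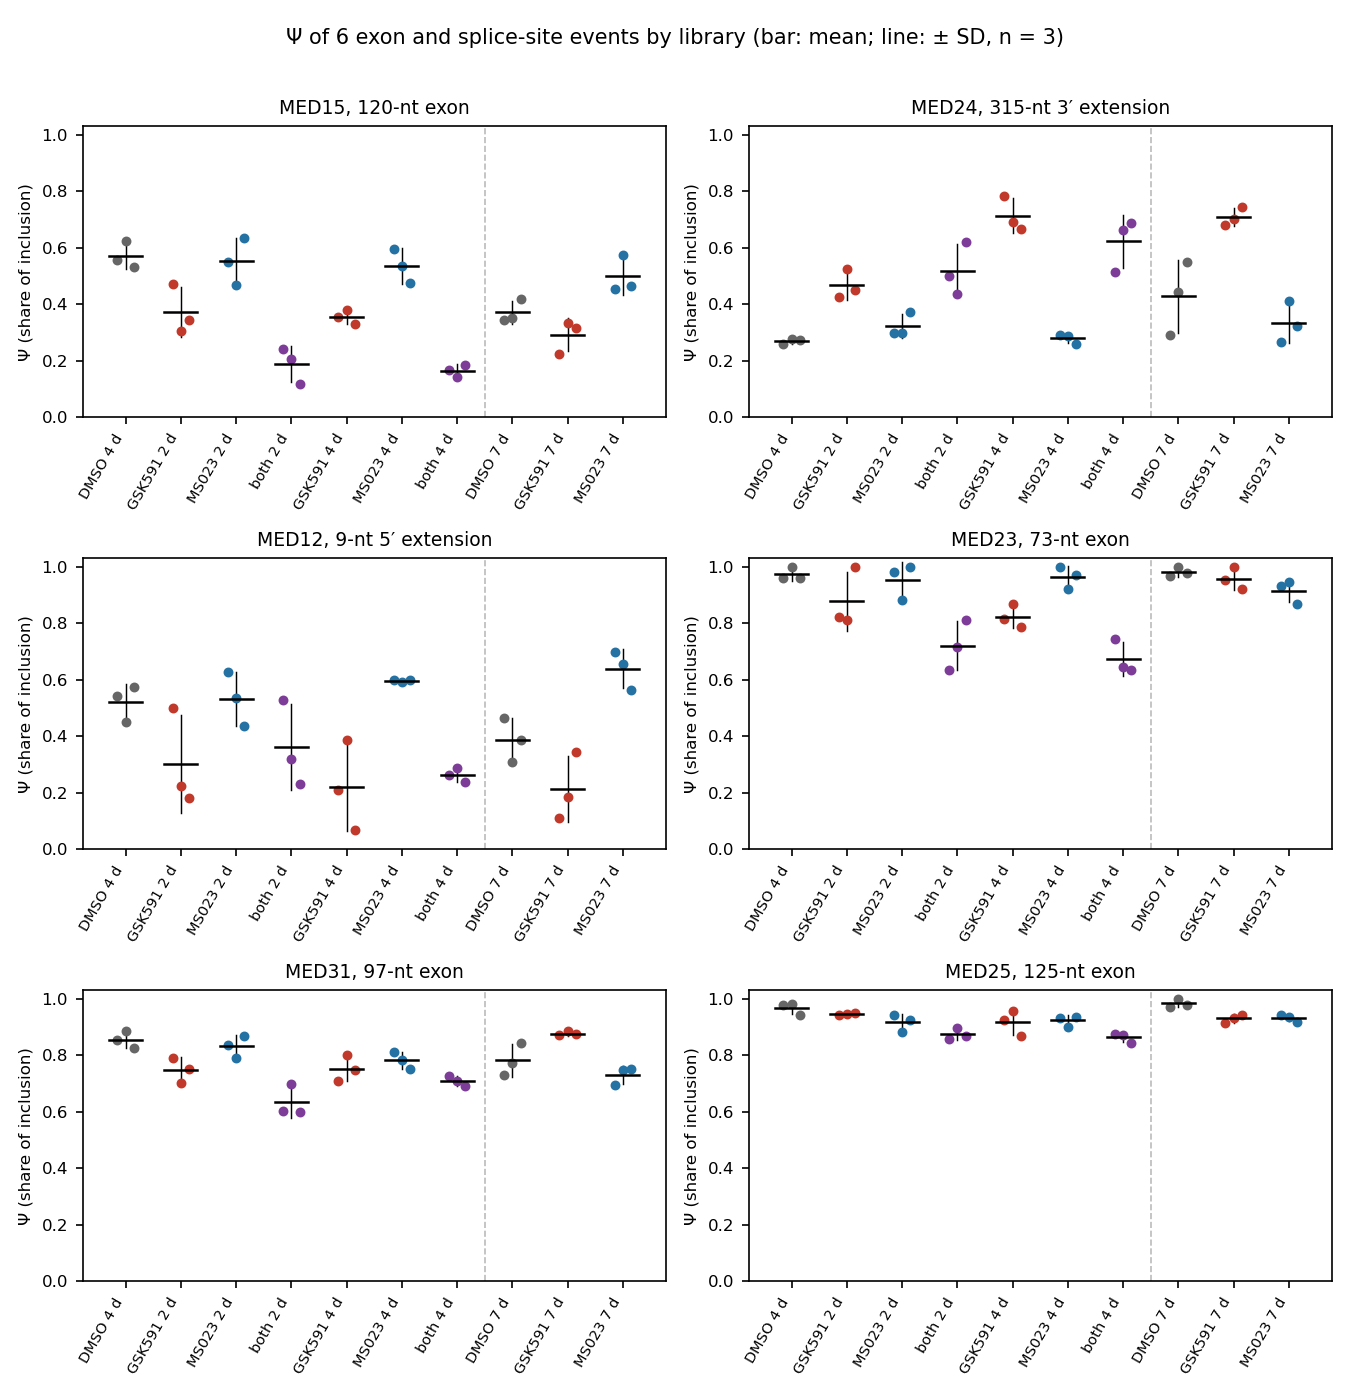
Ψ per library (points) with the mean (bar) and SD (line) of 3 libraries, for 6 Mediator exon and splice-site events across the 10 groups on a scale from 0 to 1. The dashed line sets off the 7-day groups. MED15 exon 9 is at 0.115 to 0.24 in both-inhibitor libraries, the MED24 extension is at 0.665 or above in GSK591 libraries at 4 and 7 days, and MED31 exon 3 is below DMSO with GSK591 at 4 days and above it at 7 days.

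MED31, a middle subunit, held the one Mediator event whose response to GSK591 turned round with time. Its 97-nt exon 3 of 4 (chr17:6553302-6553398, − strand) was at 0.853, 0.885, and 0.825 in DMSO at 4 days. With GSK591 it was 0.792, 0.703, and 0.751 at 2 days and 0.71, 0.8, and 0.748 at 4 days (ΔΨ = -0.106 and -0.102, adjusted p = 0.00499 and 0.00519). At 7 days it was 0.871, 0.885, and 0.874 with GSK591 and 0.729, 0.774, and 0.845 with DMSO, so that each GSK591 library stood above each DMSO library (ΔΨ = 0.0941, adjusted p = 0.000552).

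The effect of GSK591 on MED31 exon 3 differed between 7 and 4 days by 0.196 (interaction, adjusted p = 3.68e-06), the sole interaction called among 164 Mediator exon and splice-site events, beside 1.32% of all. DMSO itself was lower at 7 than at 4 days by -0.072, which was not called (adjusted p = 0.182). Co-treatment gave -0.221 at 2 days and -0.146 at 4 days (4.68e-10 and 2.61e-05), below GSK591 at 2 days by -0.115 (0.0263). The GSK591 calls were lost without DMSO b or GSK591 b at 2 days, DMSO b or GSK591 a at 4 days, and DMSO a at 7 days (ΔΨ = 0.0672, adjusted p = 0.0889). The interaction held without any 1 of the 12 libraries (0.169 to 0.227, adjusted p up to 0.000948).

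Other events of MED31 were called with co-treatment at 4 days only, the same exon joined to another upstream exon (0.994 to 0.9) and the 78-nt exon before it (0.992 to 0.903). MED1, the subunit that binds nuclear receptors, had 3 SE with small changes with co-treatment, 2 lower and 1 higher, the largest -0.0446. The scaffold gene MED14 had 1 call, its 132-nt coding exon 24 (chrX:40525972-40526103, − strand). Ψ was 0.862, 0.892, and 0.882 in DMSO at 4 days, 0.762, 0.719, and 0.823 with GSK591 (ΔΨ = -0.111, adjusted p = 0.00613), and 0.748, 0.766, and 0.69 with co-treatment (-0.144, 8.91e-05). All inhibitor libraries of this pair lay below DMSO, and the GSK591 call was lost without DMSO b or GSK591 b (adjusted p up to 0.129). By limma on log2 odds, neither MED14 call was kept (adjusted p = 0.402 and 0.211).

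In the head, MED22 and MED8 had 1 RI call each, with GSK591 at 4 days. MED22 intron 4 (chr9:136208545-136210979, − strand, 2435 nt, in part coding in other transcripts) was the one RI to fall, from 0.974, 0.971, and 0.97 to 0.894, 0.911, and 0.918 (ΔΨ = -0.064, adjusted p = 0.0405). Its spliced form rested on 4 to 10 reads a library beside 1467 or more of the retained form, and the call was lost without any 1 library (adjusted p up to 0.11). MED8 intron 5 (chr1:43851898-43852259, − strand, 362 nt) was low throughout and rose from 0.0115 ± 0.00492 (SD, n = 3) to 0.0268 ± 0.0143 (0.0154, adjusted p = 0.0325), with overlap, a call lost without DMSO a or b or GSK591 c (adjusted p up to 0.34).

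The 5 RI not called against DMSO were in MED13L (201 nt), MED16 (164 nt), MED17 (86 nt), and MED25 (78 and 440 nt). Mean Ψ over the 10 groups was at 0.986 or above for MED16 and at 0.0833 or below for MED13L, MED17, and the 78-nt intron of MED25. The 440-nt MED25 intron was at 0.182 ± 0.0569 (SD, n = 3) in DMSO at 4 days and 0.0933 ± 0.0317 at 7 days, a called difference between controls (-0.0885, adjusted p = 0.0369). The 11 Mediator RI had a median length of 164 nt and a median GC content of 58%, beside 260 nt and 57.4% for the 4928 RI of all genes. Of them, 5 (45.5%) were 100 nt or shorter, beside 19.5% of all RI.

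The 2 compounds were compared directly at matched dose and day. GSK591 was called against MS023 in 2, 8, and 2 of 11 Mediator RI at 2, 4, and 7 days, beside 32.4%, 43.7%, and 38.2% of all RI. Each call was higher with GSK591 but 1 at 4 days, in MED22 (-0.0787, adjusted p = 0.00498). At 2 and 7 days the calls were MED12 and the 81-nt intron of MED15, and at 4 days MED23, MED8, the second MED15 intron, and both MED25 introns came in as well. Among exon and splice-site events GSK591 and MS023 differed in 6 of 191, 10 of 181, and 11 of 170, beside 7.09%, 11.4%, and 8.94% of all.

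Addition of MS023 to GSK591 changed no Mediator RI by call (0 of 11 at 2 and 4 days by the quasi-binomial test, 0 and 1 at an unadjusted p under 0.05, beside 3.29% and 7.75% of all RI called). It lowered 3 of 193 exon and splice-site events at 2 days, in MED15, MED25, and MED31, and 2 of 183 at 4 days, both across MED15 exon 9, beside 2.31% and 3.95% of all. The interaction of the inhibitors was called by the same test for 0 of 11 RI on both days (0 and 1 at an unadjusted p under 0.05), beside 0.589% and 2.33% of all RI. It was called for 0 of 185 and 0 of 176 other events (8 and 13 unadjusted), beside 0.261% and 0.852%. Against MS023, co-treatment was called in 5 of 11 RI on each day (37.8% and 43.2% of all RI) and in 12 of 196 and 20 of 190 other events (8.96% and 11.7%).

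Between the DMSO groups, 1 of 11 Mediator RI and 8 of 208 other events were called at 7 against 4 days, beside 7.2% and 4.79% of all. They lay in MED25 (RI) and in MED15, MED24, MED25, MED27, and MED4. The part of this difference in the 2-day comparisons was not tested. Between 7 and 4 days, the effect of GSK591 on Mediator RI differed in 0 of 11 by the quasi-binomial test (1 at an unadjusted p under 0.05), beside 5.83% of all RI. For MS023, 0 of 11 RI (0 unadjusted) and 0 of 159 other events (8 unadjusted) differed, beside 0.295% and 0.0804%.

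As other genes of the initiation machinery, 34 genes of the general transcription factors had 604 events listed, with 13 RI tested. Of these 13, 4, 5, and 4 were called with GSK591 at 2, 4, and 7 days, beside 25.0%, 36.8%, and 25.3% of all RI. Co-treatment gave 6 and 6 at 2 and 4 days, beside 33.5% and 38.5%. MS023 gave 0, 1, and 1, beside 5.07%, 6.24%, and 10.2%. All of these RI called with GSK591 were higher, and of those called with co-treatment 1, at 2 days, was lower. Of their exon and splice-site events, 20 of 331 and 15 of 301 were called with co-treatment at 2 and 4 days, beside 8.68% and 10.1% of all. GSK591 gave 5 of 282, 10 of 278, and 15 of 257 at 2, 4, and 7 days, beside 3.95%, 7.1%, and 5.03%. MS023 gave 5 of 294, 3 of 289, and 7 of 266, beside 1.45%, 1.83%, and 2.34%.

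Of the 30 Mediator genes with events tested, 13 had a call against DMSO. Those without one were, beside CDK8, CDK19, and MED13L, in the head MED6, MED11, MED17, MED18, MED20, MED27, MED28, MED29, and MED30, with 1 to 16 tested events each, and in the middle MED4, MED9, MED10, MED19, and MED21, with 1 to 11. Genes with few listed events could show few calls.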

How the data were processed

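The authors made stranded poly(A) libraries, sequenced them paired-end, and aligned them to hg19. Per the labels their tools included Trim Galore 0.6.5, STAR 2.4.2a, Picard 2.3.0, and deepTools 3.3.1, and rMATS made the splicing tables, one for each inhibitor group against DMSO. These deposited tables give, per event and library, comma-joined whole-number read counts of the inclusion and skipping forms, which are not normalized and include reads inside the alternative segment, with effective lengths and inclusion levels. The columns of the authors' own differences, p-values, and FDR were not used. Of per-sample value columns, 0 were left out.

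Ψ was recomputed from counts and effective lengths and differed from the deposited inclusion level, a fraction, by at most 0.0005. Each event with at least 10 reads in every library was tested by quasi-binomial logistic regression (R 4.3.3). The dispersion, at least 1, was moderated with limma 3.58.1, the prior taken from events with at least 30 reads of each form, and p-values were adjusted by Benjamini-Hochberg within event type and comparison. The method was tested on simulated data. Alternatives were limma on log2 odds (offset 0.5), read minimums of 1 and 20, adjustment over all event types, Ψ as a plain share of reads, each library left out, and a prior from all events, the last chosen after seeing the data. The counts were compared per event, so library depth limits the precision and, through the read minimum, which events were tested. Shares called in different comparisons therefore rest on different sets of events. Intervals and limits for 0 reads cover counting error only.

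The Mediator members and the gene lists were chosen with earlier results of these data known. Every RI called at least once was named, and of other events those called with an absolute ΔΨ of at least 0.1, at most 15. The 8 tables repeat the same DMSO counts, so comparisons of a day share control libraries. Sequences and annotation are from GRCh37, where 99.09% of all 4928 RI had canonical intron ends.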

Additional observations from a re-analysis of the deposited data

Results flagged for a closer look

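The effect of GSK591 on the 97-nt exon 3 of MED31 differed between days in direction, and the difference was tested. ΔΨ was -0.102 at 4 days and 0.0941 at 7 days, and the interaction was 0.196 (adjusted p = 3.68e-06, quasi-binomial test over all skipped exons). In both comparisons GSK591 and DMSO libraries did not overlap. Ψ in DMSO was 0.855 ± 0.0298 (SD, n = 3) at 4 days and 0.783 ± 0.0587 at 7 days, and with GSK591 it was 0.753 ± 0.0451 and 0.877 ± 0.00714. Without any 1 of the 12 libraries, a check chosen after seeing the data, the interaction stayed between 0.169 and 0.227. By limma on log2 odds, the effects within a day were not called (adjusted p = 0.473 and 0.496).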

How the results depend on the processing

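By limma on log2 odds, Mediator RI calls against DMSO with GSK591 numbered 3 at 2 days and 1 at 7 days, and with co-treatment 2 at 2 days. Calls of exon and splice-site events by limma numbered 0, 3, and 0 with GSK591 at 2, 4, and 7 days, 0 and 0 with MS023 at 2 and 7 days, and 6 and 8 with co-treatment at 2 and 4 days. With p-values adjusted over all event types, RI calls were 0, 3, and 0 with GSK591 at 2, 4, and 7 days and 1 with co-treatment at 2 days. With the prior from all events, chosen after seeing the data, exon and splice-site calls were 3, 3, and 3 with MS023, 8 with GSK591 at 7 days, and 26 with co-treatment at 2 days. With Ψ as a plain share of reads, the median ΔΨ of the RI was -0.00553 with MS023 at 2 days, 0.0117 with GSK591 at 4 days, and 0.0156 with GSK591 at 7 days.

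Without each library in turn, RI calls ranged from 0 to 1, 3 to 4, and 0 to 3 with GSK591 at 2, 4, and 7 days, from 0 to 1 and 0 to 1 with MS023 at 2 and 4 days, and from 1 to 3 and 1 to 5 with co-treatment. Exon and splice-site calls ranged from 1 to 7, 7 to 11, and 2 to 4 with GSK591, and from 0 to 2 and 0 to 1 with MS023 at 2 and 4 days. The median ΔΨ of the RI ranged from 0.00222 to 0.0107, 0.00472 to 0.0194, and 0.0043 to 0.0124 with GSK591 at 2, 4, and 7 days, from -0.0115 to 0.00151, -0.00391 to 0.00472, and -0.000444 to 0.00788 with MS023, and from 0.00222 to 0.00709 and 0.00223 to 0.0165 with co-treatment at 2 and 4 days.

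Of 60 calls of named events, 18 were kept by limma, 49 with adjustment over all event types, and 60 with a minimum of 1 read or the other prior. With single libraries left out 30 calls were lost at least once, and 0 reversed. The cause of these differences was not tested. No paired analysis was possible because the table columns carry no replicate numbers, only positions. Low read numbers limit the precision of some events, such as the MED23 microexon.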
